A study of Mus musculus with 54 samples.

Results

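The nuclear genes for the subunits of oxidative phosphorylation complexes II to V were followed in the hearts and livers of mice with altered mitochondrial ribosomes. Members were the protein-coding genes with the names Sdha to Sdhd for complex II, Uqcr and Cyc1 for complex III, Cox4 to Cox8 for complex IV and Atp5 for complex V. They numbered 49 gene entries of the 54356 genes in each tissue's table, or of 21834 protein-coding genes, with 4 in complex II, 9 in complex III, 18 in complex IV and 18 in complex V. The 49 entries carried 48 symbols, since Atp5o was listed as 2 entries, and the second of these was at 0 in every mouse. The groups were wild-type Mrps12+/+ mice (+/+), homozygous Mrps12ep/ep mice (ep/ep) with an error-prone mitochondrial ribosome and homozygous Mrps12ha/ha mice (ha/ha) with a hyper-accurate ribosome, 3 mice of each genotype. Each mutation lies in the germline copy of Mrps12, so that every cell of the animal carries it, and mutants were bred from heterozygous parents beside wild-type littermates. All the mice were males of the C57BL/6 strain, aged 20 weeks, and all of them, the +/+ mice included, ate a high-fat diet that drew 42% of its energy from fat. Bulk RNA of whole hearts and livers was sequenced, and every value is a normalized count, which is a read count that the authors divided by a size factor for each mouse.

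Complex II oxidises succinate and passes electrons to ubiquinone, complex III hands them to cytochrome c, complex IV uses them to reduce oxygen, and complex V, the ATP synthase, makes ATP from the proton gradient. All subunits of complex II are nuclear-encoded, whereas complexes III, IV and V also contain subunits that are encoded in mitochondrial DNA and made on the ribosome to which MRPS12 belongs. Heart muscle depends on these complexes for contraction and expresses muscle-type isoforms of several small complex IV subunits, and the liver uses the ubiquitous forms. Mitochondrially encoded subunits were left out of the tables by the authors and are not analysed here.

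Hearts held 11202961 to 51484404 reads on genes, and livers 21238036 to 81518584. The shallowest heart was that of ha/ha mouse 2. All 8 cardiomyocyte markers averaged at least 10 normalized counts in the hearts, and all 8 hepatocyte markers did so in the livers. Mrps12 itself was at 1028 to 1397 normalized counts in the hearts and 1508 to 1914.5 in the livers, and each mutant overlapped with the wild type in both tissues. Some libraries stood apart by markers of other cells. The summed level of 8 atrial markers was 8955, 179031 and 131465 in the +/+ hearts, 2452, 413477 and 101397 in the ep/ep hearts and 6183, 5711 and 12204 in the ha/ha hearts, so that 4 hearts, +/+ mice 2 and 3 and ep/ep mice 2 and 3, had high levels. The sum of 5 erythroid markers was 116664, 91865 and 235641 in +/+, 134443, 219870 and 186685 in ep/ep and 464387, 199245 and 1411970 in ha/ha hearts. In the livers, the sum of 12 skeletal muscle markers was 30972, 40026 and 61.1 in +/+, 202, 72.9 and 44.5 in ep/ep and 97.6, 52.5 and 222 in ha/ha mice, and the sum of 8 cardiomyocyte markers in the liver of ha/ha mouse 3 was 7953, against 42.2 to 503.8 in the other livers. In bulk tissue, fewer cells of a type and less RNA per cell cannot be told apart. The limma p-values below rest on a spread between mice that is pooled over all genotypes of a tissue. A comparison of +/+ with ep/ep mice therefore also carries the spread of the ha/ha mice, except where only the genotypes compared were fitted.

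Of the 49 entries, 46 had a mean of at least 10 normalized counts in the heart and were tested there, and 44 were tested in the liver. Not tested in the heart were Cox7b2, the testis-type Cox8c and the second Atp5o entry, and in the liver Cox4i2 and Cox6b2 were left out as well. Per length of transcript, the highest of these genes in the heart was Cox6a2, the muscle form of subunit VIa, with a mean of 95672 normalized counts per kilobase over the 9 hearts, followed by Atp5b, the catalytic β-subunit, with 91774. In the liver, the highest per kilobase was Uqcrq, a small subunit of complex III, with 30552, followed by Atp5b with 27079. The tissues were normalized apart, so these levels are set side by side without a test. All members together took 3.48% ± 0.0609 (SD, n = 3) of the normalized counts in +/+ hearts, 3.39% ± 0.431 in ep/ep hearts and 3.96% ± 0.248 in ha/ha hearts. In the liver the shares were 0.826% ± 0.0783, 0.839% ± 0.0693 and 0.874% ± 0.0485.

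In ha/ha hearts, most subunit genes of complexes III, IV and V had higher means than in +/+ hearts, whereas 3 of 4 genes of complex II had lower means, and no member passed the test. Of the 46 tested members, 38 had a log2 fold change above 0 between ha/ha and +/+ hearts, with a median of 0.27 on the log2 scale beside -0.024 over all 16057 genes tested. In 29 members, every ha/ha heart lay above every +/+ heart, where 11.1% of all tested genes did so, and in 0 members did every ha/ha heart lie below, where 10.0% of all genes did. None of the 46 had an adjusted p under 0.05 from limma, where 0.0311% of all genes did, and 15 had an unadjusted p under 0.05, where 19.7% of all genes did. All 15 were higher in ha/ha, where 9.64% of all genes were higher and 10.1% were lower at this p. The summed cardiomyocyte markers were 2530840, 2707110 and 2382890 in the +/+, 2814030, 2083710 and 2392970 in the ep/ep and 3648330, 2831470 and 3229460 in the ha/ha hearts, so that this sum was higher in every ha/ha heart than in every other heart. Without Myh6, its most abundant gene, the sum was 1499160, 1458380 and 1299170 in the +/+, 1557640, 1029400 and 1398120 in the ep/ep and 1517980, 1645900 and 1383310 in the ha/ha hearts, and the genotypes overlapped. Single markers went both ways in ha/ha mice 1 and 3. Ryr2, the calcium release channel, was at 47154, 51018 and 53594 in the +/+ and 16285, 44622 and 19113 in the ha/ha hearts. In these mice Ryr2 and Actc1 were below every +/+ heart, and Mybpc3 was below in mouse 3 only. Myh6, Myl2, Myl3 and Tnni3 were above every +/+ heart in both. Myh6 was at 1031670, 1248720 and 1083720 in the +/+ and 2130350, 1185570 and 1846140 in the ha/ha hearts. The part of the markers in the result was not tested. Leaving out 1 heart moved the count of 15 members with an unadjusted p under 0.05, to 1 without ha/ha mouse 1, 3 without ha/ha mouse 3, 24, of which 18 were higher, without ha/ha mouse 2 and 6, 9 and 9 without a +/+ heart. The count over all genes at this p was not taken in these fits, so the moves cannot be set against it. Without ha/ha mouse 2, 4330 of all genes had an adjusted p under 0.05 from limma, against 5 with all hearts and 4 without ha/ha mouse 1 or 3. By complex, the groups did not overlap in 0 of 4 genes of complex II, 4 of 9 of complex III, 12 of 16 of complex IV and 13 of 17 of complex V. The median log2 fold changes of the complexes, in the same order, were -0.28, 0.083, 0.30 and 0.35.

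**Figure D1:**
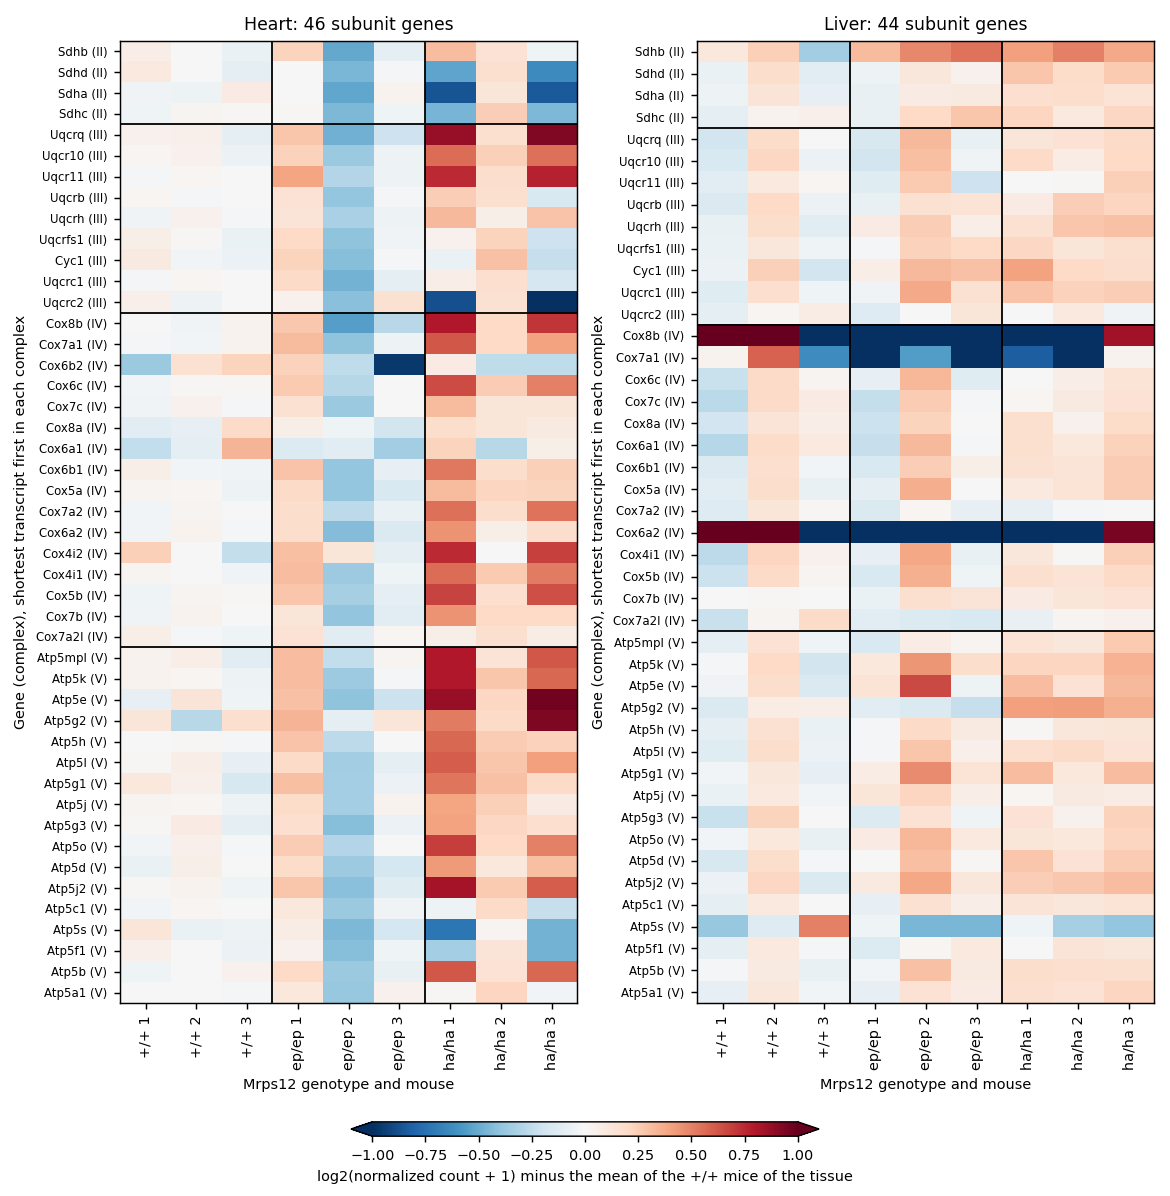
Heat maps of the tested subunit genes in 9 hearts (46 genes, left) and 9 livers (44 genes, right), with genes in rows, ordered by complex and from short to long transcript, and mice in columns. The color is the log2 of the normalized count plus 1 minus the mean of the 3 +/+ mice of that tissue, cut at -1 and 1. Among the hearts, ha/ha hearts 1 and 3 show the highest values and ha/ha heart 3 the lowest, while ep/ep heart 2 is low in 45 of 46 rows.

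The 3 ha/ha hearts differed from each other. The median over the 46 members of the log2 difference from the +/+ mean was 0.44 in ha/ha mouse 1, 0.18 in mouse 2 and 0.21 in mouse 3. In mouse 2, 41 members were above every +/+ heart and 1 (Cox6a1) was below, and the differences of its members ranged from -0.27 to 0.30. In mouse 1, 34 were above and 8 below, with a range of -0.88 to 0.87, and in mouse 3, 30 were above and 12 below, with a range of -1.20 to 0.97. Mice 1 and 3 were also those with the highest erythroid sums among the 9 hearts, as given above, and whether this contributed to the levels of the members was not tested.

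In complex II, Sdha, the flavoprotein that oxidises succinate, had 56705, 56149 and 61660.5 normalized counts in the +/+ mice, 58153, 40648 and 59502 in the ep/ep mice and 31963, 63277 and 32464 in the ha/ha mice. Sdhb, the iron-sulphur subunit, had 26961, 25685 and 24588 normalized counts in the +/+ mice, 30093, 17999.5 and 24113 in the ep/ep mice and 31889, 28452 and 24942 in the ha/ha mice. Thus Sdha in ha/ha mice 1 and 3 lay far below every +/+ heart and in mouse 2 above them, while Sdhb was above the +/+ hearts in ha/ha mice 1 and 2 and among them in mouse 3. Sdhc, a membrane anchor of the complex, had 12386, 12994 and 12821 normalized counts in the +/+ mice, 12842, 9310.3 and 12364 in the ep/ep mice and 9239, 15137 and 9312 in the ha/ha mice. Sdhd, the other membrane anchor, had 13855, 12918 and 12206 normalized counts in the +/+ mice, 13007, 9473 and 12835 in the ep/ep mice and 9023, 14521 and 8344 in the ha/ha mice. For both anchors, ha/ha mice 1 and 3 were below every +/+ heart and mouse 2 was above every one, so that the groups overlapped. The log2 fold change of Sdha between ha/ha and +/+ hearts was -0.53 ± 0.28 (SE, limma adjusted p = 0.303), and that of Sdhd was -0.33 ± 0.22 (SE, limma adjusted p = 0.378). Without ha/ha mouse 2 the log2 fold changes were -0.85 (adjusted p = 0.0137 from limma) and -0.58 (adjusted p = 0.0240).

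The Sdha gene (ENSMUSG00000021577.14) lies on chromosome 13 of GRCm38 from 74322254 to 74350280 on the reverse strand. Its promoter is shown because Sdha is the long, catalytic member that was low in ha/ha hearts 1 and 3, beside that of Atp5e (ENSMUSG00000016252.7, chromosome 2, 174461072 to 174464105, reverse strand), the short member with the largest log2 fold change in the opposite direction. Atp5e encodes the ε-subunit of the central stalk of the ATP synthase. The 250 bases before the RefSeq start site (GRCm38.p6) are given 5′ to 3′. Capitals mark a match to 1 of the motifs searched, which Sdha lacked and which in Atp5e is CCGGAAG, read on the opposite strand, a core that ETS factors such as GABP bind. They span chr13:74350241-74350490 for Sdha and chr2:174464102-174464351 for Atp5e, both on the reverse strand.
Sdha: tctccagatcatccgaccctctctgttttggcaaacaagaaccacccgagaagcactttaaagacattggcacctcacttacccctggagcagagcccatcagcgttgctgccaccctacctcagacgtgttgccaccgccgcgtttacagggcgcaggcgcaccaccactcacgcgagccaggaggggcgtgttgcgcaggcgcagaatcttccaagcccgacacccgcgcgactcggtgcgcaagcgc
Atp5e: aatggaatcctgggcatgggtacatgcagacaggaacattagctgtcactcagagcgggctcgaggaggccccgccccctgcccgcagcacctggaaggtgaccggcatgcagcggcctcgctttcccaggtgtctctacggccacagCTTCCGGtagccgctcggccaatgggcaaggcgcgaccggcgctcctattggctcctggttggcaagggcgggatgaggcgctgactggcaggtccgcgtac
Of the 48 symbols, 36 matched a gene with a promoter in the RefSeq table, which gave 39 distinct windows of this length. CCGGAAG, on either strand, was in 9 of the 39 (23.1%), among them Atp5e, Atp5h, Atp5j, Uqcrh and Sdhd, and in 6.90% of all 32817 windows. The palindromic NRF1 motif, which is in capitals in the Atp5g2 promoter printed below, was in 3 of the 39 (7.69%), those of Atp5g2, Atp5k and Cox6a1, and in 0.777% of all. AAGGTCA, the half-site of the estrogen-related receptors, was in 2 (5.13%), against 4.08% of all, and AAGATGGCG, the motif of YY1, was in 1 (2.56%), against 0.603%. Both strands were searched for each motif, and 3 of the windows with CCGGAAG, those of Cox6a1, Atp5l and Atp5j, were of genes that also held a further motif. The matches describe these windows and were not tested against the levels.

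In complex III, the core gene Uqcrc2 was low in the same 2 ha/ha mice. Uqcrc1, a core protein on the matrix side, had 39230.3, 40066 and 39422 normalized counts in the +/+ mice, 45201, 28578 and 36953 in the ep/ep mice and 41352, 44558 and 35156 in the ha/ha mice. Uqcrc2, its partner core protein, had 35332, 32919 and 34076 normalized counts in the +/+ mice, 35189.5, 25583 and 37955 in the ep/ep mice and 18573, 37941 and 14807 in the ha/ha mice. In each +/+ heart the 2 core genes had similar counts, with Uqcrc2 at 0.901, 0.822 and 0.864 times Uqcrc1, whereas in ha/ha mice it was at 0.449, 0.851 and 0.421, so that mice 1 and 3 stood apart from every other heart and mouse 2 did not. Uqcrfs1, the Rieske iron-sulphur protein, had 21359, 20582 and 19509 normalized counts in the +/+ mice, 23500.3, 15496 and 20011 in the ep/ep mice and 21062, 23895 and 17712 in the ha/ha mice. Cyc1, cytochrome c1, had 25061, 23061 and 22560.3 normalized counts in the +/+ mice, 27412, 17489.8 and 23363 in the ep/ep mice and 22523, 28881 and 20056 in the ha/ha mice. Both of these electron-carrying subunits overlapped between the genotypes.

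Of the small subunits of complex III, Uqcrq, Uqcr10, Uqcr11 and Uqcrh were higher in ha/ha than in +/+ hearts without overlap, and Uqcrb was not. Uqcrq (ENSMUSG00000044894.14, chromosome 11, 53427922 to 53430831), subunit VII, had 12009, 12093 and 10896 normalized counts in the +/+ mice, 14161, 8345 and 10083 in the ep/ep mice and 21266, 13056 and 22142 in the ha/ha mice. Uqcr10, subunit X, had 6985, 7077 and 6598 normalized counts in the +/+ mice, 8095, 5333 and 6630.4 in the ep/ep mice and 10133, 8124 and 10088 in the ha/ha mice. Uqcr11, subunit XI, had 11940.4, 12286 and 12075 normalized counts in the +/+ mice, 15933, 9851 and 11711 in the ep/ep mice and 20311, 13659.9 and 20598 in the ha/ha mice. Every ha/ha heart was above every +/+ heart in all 3 genes, with mice 1 and 3 highest and mouse 2 the lowest of the 3. Uqcrb, a further small subunit, had 19598, 19063 and 19316 normalized counts in the +/+ mice, 21356, 14752 and 19146 in the ep/ep mice and 22903, 21536 and 17402 in the ha/ha mice, so that ha/ha mouse 3 was below every +/+ heart and the groups overlapped, with a log2 fold change of 0.083 ± 0.17 (SE, limma adjusted p = 0.788). The log2 fold changes between ha/ha and +/+ hearts were 0.65 ± 0.24 (SE, limma adjusted p = 0.220) for Uqcrq and 0.45 ± 0.16 (SE, limma adjusted p = 0.216) for Uqcr10. Over the alternative analyses the adjusted p was 0.00447 to 0.943 for Uqcrq and 0.00696 to 0.908 for Uqcr10.

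**Figure D2:**
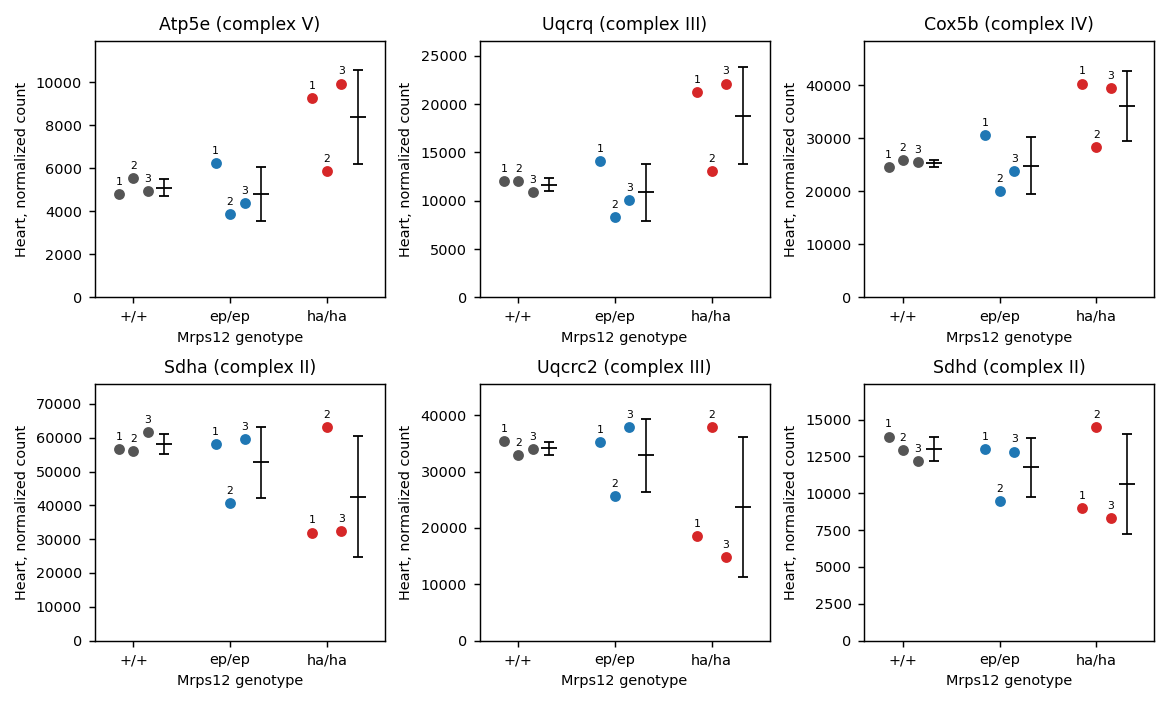
Normalized counts in hearts of 3 short or mid-length subunit genes (Atp5e, Uqcrq, Cox5b, top) and 3 longer ones (Sdha, Uqcrc2, Sdhd, bottom), with 1 point for each mouse, numbered, and the mean ± SD of the 3 mice of a genotype in black. In the top panels every ha/ha point lies above the +/+ points, and in the bottom panels ha/ha mice 1 and 3 lie below every other heart while mouse 2 does not.

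In complex IV, 12 of 16 genes were higher in ha/ha than in +/+ hearts without overlap. Cox4i1, the main form of subunit IV, which takes part in regulation by ATP, had 40451, 39903 and 38814 normalized counts in the +/+ mice, 49185, 30851 and 38479 in the ep/ep mice and 58604, 47705 and 56991 in the ha/ha mice. Cox5a had 17596, 17426 and 16659 normalized counts in the +/+ mice, 19690.4, 13193 and 15470.2 in the ep/ep mice and 21470.5, 19978 and 20095 in the ha/ha mice. Cox5b, a zinc-binding subunit on the matrix side, had 24584, 25868 and 25516 normalized counts in the +/+ mice, 30623, 20145 and 23759 in the ep/ep mice and 40351, 28404 and 39479.6 in the ha/ha mice. In each, the 3 ha/ha hearts were above the 3 +/+ hearts, and ep/ep mouse 1 was above the +/+ hearts too. The log2 fold change of Cox5b was 0.49 ± 0.20 (SE, limma adjusted p = 0.229). The smallest unadjusted p-values of this complex between ha/ha and +/+ belonged to Cox7a2 and Cox6c. Cox7a2, the ubiquitous form of subunit VIIa, had 7499, 7785 and 7620.3 normalized counts in the +/+ mice, 8611, 6351 and 7277 in the ep/ep mice and 11157, 8625 and 11103 in the ha/ha mice, with a log2 fold change of 0.42 ± 0.15 (SE, limma adjusted p = 0.214). Cox6c had 18873, 19462 and 19429.7 normalized counts in the +/+ mice, 23144, 15809.8 and 19297 in the ep/ep mice and 30199, 22959 and 27297 in the ha/ha mice, with a log2 fold change of 0.47 ± 0.17 (SE, limma adjusted p = 0.217). Cox7a2l had 10015, 9469.6 and 9349.8 normalized counts in the +/+ mice, 10609, 8918 and 9754 in the ep/ep mice and 10032, 10706 and 10093 in the ha/ha mice, and in it all 3 ha/ha hearts were above the 3 +/+ hearts by small steps.

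In complex V, the genes of the catalytic head differed from one another. Atp5a1, the α-subunit, had 146156, 146321 and 144786 normalized counts in the +/+ mice, 156838, 111806 and 149987 in the ep/ep mice and 147308, 169566 and 142804 in the ha/ha mice. Atp5b, the β-subunit, had 153582, 157736 and 163373 normalized counts in the +/+ mice, 181577, 122274 and 150307 in the ep/ep mice and 243728, 174830 and 235136 in the ha/ha mice. Atp5c1, the γ-subunit of the rotor, had 37439, 38573 and 38255 normalized counts in the +/+ mice, 40977, 29409.6 and 37248 in the ep/ep mice and 36675, 43489 and 32453 in the ha/ha mice. Atp5b was higher in every ha/ha heart than in every +/+ heart, while Atp5a1 and Atp5c1 overlapped. Within a mouse, Atp5a1 was at 0.952, 0.928 and 0.886 times Atp5b in the +/+ hearts, 0.864, 0.914 and 0.998 in the ep/ep hearts and 0.604, 0.970 and 0.607 in the ha/ha hearts, and again mice 1 and 3 were apart from the rest. Atp5b has a transcript of 1916 nt, and its log2 fold change was 0.45 ± 0.26 (SE, limma adjusted p = 0.335) between ha/ha and +/+ hearts.

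The smallest p-values of complex V were those of Atp5e and Atp5k, with transcripts of 421 and 371 nt, and Atp5j2, with 955 nt. Atp5e had 4815, 5548 and 4926 normalized counts in the +/+ mice, 6239, 3852 and 4373 in the ep/ep mice and 9279, 5886 and 9937 in the ha/ha mice. Atp5k, subunit e, which takes part in dimers of the synthase, had 8875, 8753 and 8339.8 normalized counts in the +/+ mice, 10699, 6723 and 8527 in the ep/ep mice and 15094, 10479.7 and 12895 in the ha/ha mice. Atp5j2, subunit f, had 10898, 11098 and 10485 normalized counts in the +/+ mice, 13093, 8086 and 9978 in the ep/ep mice and 19221, 12965 and 16434 in the ha/ha mice. In these 3 genes all the ha/ha hearts were above the +/+ hearts, and mouse 2 was the lowest of the 3. The log2 fold changes were 0.68 ± 0.23 (SE, limma adjusted p = 0.213), 0.55 ± 0.19 (SE, limma adjusted p = 0.213) and 0.56 ± 0.20 (SE, limma adjusted p = 0.213), in that order. For Atp5e the adjusted p ranged over the alternatives from 0.00441 to 0.929, and it was 0.0105 without ha/ha mouse 2. Atp5s, a factor linked to the coupling of the synthase, and Atp5f1, subunit b of the stator, had log2 fold changes in the other direction, at -0.39 ± 0.20 (SE, limma adjusted p = 0.294) and -0.23 ± 0.20 (SE, limma adjusted p = 0.509).

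Across the members, the differences in ha/ha hearts went with the length of the principal transcript in GENCODE vM21. Among the 46 tested members, Spearman's rho between transcript length and the log2 difference from the +/+ mean was -0.66 in ha/ha mouse 1, -0.092 in mouse 2 and -0.64 in mouse 3. In ep/ep mice 1 to 3 it was -0.60, -0.38 and 0.18. These are correlations across genes of 1 library each, and the genes are not independent. Of the 19 members under 600 nt, the median log2 difference was 0.57, 0.19 and 0.41 in ha/ha mice 1 to 3, and of the 11 members of 1200 nt and over it was -0.34, 0.16 and -0.45. In mouse 2 all 11 long members were above the +/+ mean, and in mouse 3 only 1 of them was, which was Atp5b.

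The other coding genes had a relation with length in the same mice. The 221 other tested coding genes under 600 nt had medians of 0.43, 0.071 and 0.43 in ha/ha mice 1 to 3, and 76.9%, 62.4% and 76.9% of them were above the +/+ mean. The 12540 other genes of 1200 nt and over had medians of -0.092, -0.012 and -0.078. Over all 14110 other coding genes, rho with length was -0.14, -0.085 and -0.16. By these medians, the short members lay near the other short genes in mouse 3 and above them in mouse 1, and the long members lay below the other long genes in both mice. In mouse 2, the medians of short and of long members were both above those of the other genes. GC content of the transcript had a rho of 0.33 with the log2 fold change between ha/ha and +/+ hearts among the 46 members. The part that RNA quality or library preparation has in the pattern was not tested.

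**Figure D3:**
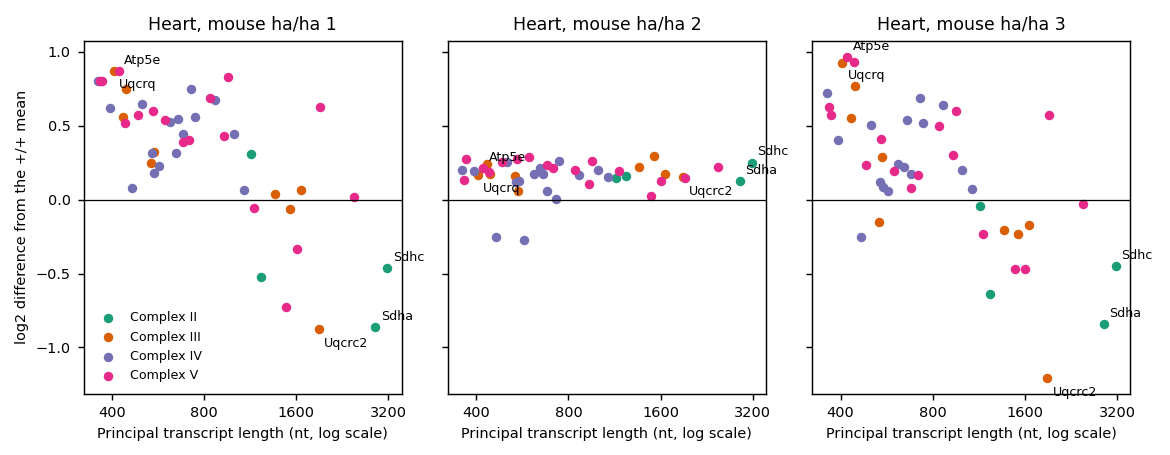
Log2 difference from the +/+ mean of each of the 46 tested subunit genes against the length of its principal transcript (nt, log scale) in the hearts of ha/ha mice 1, 2 and 3, with 1 point for each gene colored by complex. The points slope downward in mice 1 and 3 (Spearman's rho of -0.66 and -0.64) and stay near a constant level above 0 in mouse 2 (-0.092).

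The ha/ha pattern was set beside the atrial and erythroid markers by leaving out libraries, alternatives that were chosen after seeing the data. Without the 4 hearts with high atrial markers, 1 +/+ and 1 ep/ep heart remained, and the median log2 fold change of the members between ha/ha and +/+ was 0.25, with 37 of 46 above 0. With only ha/ha mouse 2 kept of the ha/ha hearts, the median was 0.18 and 44 of 46 were above 0, and no member had an adjusted p under 0.05 in either fit. In these fits a lone heart of a genotype is assumed to vary like the other groups. When ha/ha mouse 2 was left out in place of these, 20 members had an adjusted p under 0.05, with 15 higher and 5 lower (Sdha, Sdhc, Sdhd, Uqcrc2 and Atp5s). Of all 16057 genes, 4330 did, 1957 higher and 2373 lower. With array weights, by which limma counts variable hearts less, 24 members did, 18 higher and 6 lower. Of all 16057 genes, 5573 did, 2590 higher and 2983 lower.

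Between ep/ep and +/+ hearts the subunit genes differed less than the ep/ep hearts differed among themselves. None of the 46 members had an adjusted p under 0.05 from limma, where the share over all tested genes was 0%, and 0 had an unadjusted p under 0.05, where 1.69% of all genes did, 1.05% higher and 0.635% lower. The groups overlapped in every member, where 4.40% of all genes were higher and 3.64% were lower without overlap. The median log2 fold change was -0.079, with 6 members above 0, beside -0.0090 over all genes. By mouse, the median over the members was 0.20 in ep/ep mouse 1, -0.37 in mouse 2 and -0.051 in mouse 3. In mouse 1, 38 members were above every +/+ heart and 0 below, and in mouse 2, 0 were above and 41 below. Without mouse 1 the median log2 fold change was -0.22 and 22 members did not overlap, all of them lower in ep/ep. In the same fit 3605 of all 16057 genes did not overlap. Without mouse 2 the median was 0.066, with 39 of 46 members above 0.

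The heart of ep/ep mouse 2 was low in genes of all 4 complexes, long and short, as the values above show. It had the highest atrial sum of the 9 hearts, 413477, the lowest cardiomyocyte sum, 2083710, and the highest fibroblast sum, with 53774 against 27002 to 39574 in the rest. The part of these in the low levels was not tested. Among the genes with the smallest p-values of their complex here, Cox6a1, the ubiquitous form of subunit VIa, had 2416, 2695 and 3625 normalized counts in the +/+ mice, 2606, 2647 and 2254 in the ep/ep mice and 3352, 2371 and 2981 in the ha/ha mice, and Sdhc had a log2 fold change of -0.16 ± 0.21 (SE, limma adjusted p = 1). Both overlapped between ep/ep and +/+ hearts, and the log2 fold change of Cox6a1 was -0.20 ± 0.18 (SE, limma adjusted p = 1).

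The direct comparison of ha/ha with ep/ep hearts, which shares mice with the comparisons above, had 40 of 46 members above 0 and a median log2 fold change of 0.37. Without ep/ep mouse 2 the median was 0.22, without ha/ha mouse 1 it was 0.26 and without ep/ep mouse 1 it was 0.51. None passed the adjusted threshold, where 0.0249% of all genes did, and 18 had an unadjusted p under 0.05, where 17.9% of all genes did. All 18 were higher in ha/ha, where 9.07% of all genes were higher and 8.86% were lower at this p. The count was 8 without ep/ep mouse 2 or without ha/ha mouse 1, 9 without ep/ep mouse 3 or ha/ha mouse 3, 27, of which 23 were higher, without ha/ha mouse 2 and 29 without ep/ep mouse 1. Here too the count over all genes at this p was not taken. Without ha/ha mouse 2, 3730 of all genes had an adjusted p under 0.05 from limma, against 4 with all hearts and 6 without ep/ep mouse 1. In 6 members every ha/ha heart was above every ep/ep heart, which is 13.0% of the members, where 8.77% of all genes were, and in 0 members every one was below, where 7.82% of all genes were. Of the 6 members, 4 were in complex IV, 1 in complex III and 1 in complex V. The smallest p-values were those of Atp5e, with a log2 fold change of 0.79 ± 0.23 (SE, limma adjusted p = 0.236), and Cox8b, the muscle form of subunit VIII, with 0.76 ± 0.22 (SE, limma adjusted p = 0.236). In both the groups overlapped, since ep/ep mouse 1 lay above ha/ha mouse 2. Without ep/ep mouse 1 the number of members not overlapping was 31, where 5289 of all 16057 genes did not overlap. It was 6 without ep/ep mouse 2, where 4063 of all genes did not overlap. Without ha/ha mouse 2 it was 28, of which 24 were higher, where 8240 of all genes did not overlap.

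In the liver, most members had slightly higher means in ha/ha than in +/+ mice, and no member passed the test. Of the 44 tested members, 38 had a log2 fold change above 0, with a median of 0.16 beside -0.017 over all 15314 genes. In 13 members every ha/ha liver was above every +/+ liver (29.5%), where 10.0% of all genes were, and in 0 members every one was below, where 9.81% of all genes were. None had an adjusted p under 0.05 from limma, where 0.00653% of all genes did, and 5 had an unadjusted p under 0.05 (11.4%), where 14.1% of all genes did. All 5, Atp5g2, Sdhb, Sdhd, Uqcrh and Atp5j2, were higher, where 7.07% of all genes were higher and 7.05% lower at this p. The groups did not overlap in 4 of 4 genes of complex II, 2 of 9 of complex III, 1 of 14 of complex IV and 6 of 17 of complex V. The count depended on +/+ mouse 2, which had a median over the members of 0.17 above the +/+ mean. Without it, 32 of 44 members did not overlap, where 5279 of all 15314 genes did not. After quantile normalization the count of members was 6, where 3027 of all genes did not overlap. Hepatocyte markers summed to 5899760, 5617360 and 5246820 in the +/+, 6834450, 6389710 and 6704340 in the ep/ep and 6558230, 6158230 and 6831390 in the ha/ha livers, so that this sum was higher in every mutant liver than in every +/+ liver. Without albumin (Alb), its most abundant gene, the sum was 2002510, 2243440 and 2356630 in the +/+, 2404350, 2241510 and 2224720 in the ep/ep and 2142190, 2432390 and 2320480 in the ha/ha livers, and the genotypes overlapped. The part of these markers in the result was not tested. The median log2 fold change was 0.11 without +/+ mouse 1 and 0.23 without +/+ mouse 2.

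All 4 genes of complex II were higher in each ha/ha liver than in each +/+ liver. Sdhb (ENSMUSG00000009863.14, chromosome 4, 140961203 to 140979193) had 8029, 8805 and 5873 normalized counts in the +/+ mice, 9267, 10411 and 10895 in the ep/ep mice and 9910.5, 10604 and 9708 in the ha/ha mice. Sdha had 23745, 26879 and 23188 normalized counts in the +/+ mice, 23344, 25925 and 26154 in the ep/ep mice and 27579.9, 27741 and 26949.9 in the ha/ha mice. Sdhd had 7384, 8701 and 7148 normalized counts in the +/+ mice, 7447, 8363 and 7966 in the ep/ep mice and 9368, 8749 and 9265 in the ha/ha mice. In Sdhb both mutants lay above every +/+ liver, and +/+ mouse 3 was far lower than the others. Sdhc had 5377, 5862 and 5907 normalized counts in the +/+ mice, 5426, 6542 and 6927 in the ep/ep mice and 6612, 6095 and 6576 in the ha/ha mice. The log2 fold changes between ha/ha and +/+ livers were 0.43 ± 0.15 (SE, limma adjusted p = 0.251) for Sdhb, 0.24 ± 0.10 (SE, limma adjusted p = 0.318) for Sdhd, 0.17 ± 0.10 (SE, limma adjusted p = 0.495) for Sdhc and 0.16 ± 0.10 (SE, limma adjusted p = 0.506) for Sdha. For Sdhb, the log2 fold change between ep/ep and +/+ livers was 0.45 ± 0.15 (SE, limma adjusted p = 0.441), and it was the 1 member without overlap in that comparison. Over the alternatives, the adjusted p of Sdhb ranged from 0.0476 to 0.528 for ha/ha and from 0.0334 to 0.744 for ep/ep against +/+, and it was under 0.05 when the 3 livers with muscle markers were left out, which kept 1 +/+ liver, the one with the lowest Sdhb. Without that liver, +/+ mouse 3, the log2 fold change of Sdhb was 0.26 for ha/ha and 0.27 for ep/ep against +/+, with adjusted p-values of 0.362 and 0.610 from limma. The same liver stood apart in Fgb, fibrinogen beta, with 161838, 173893 and 740661 in the +/+ livers and 141891 to 210802 in the mutant livers, in Cps1, a urea cycle enzyme, with 143050, 86227 and 37959.8 in the +/+ livers, and in the summed endothelial markers, with 4723, 4056 and 1958. The part of these differences in the level of Sdhb was not tested. Within a mouse, Sdha was at 2.96, 3.05 and 3.95 times Sdhb in the +/+ livers, 2.52, 2.49 and 2.40 in the ep/ep livers and 2.78, 2.62 and 2.78 in the ha/ha livers. The lowest +/+ ratio was above the highest ep/ep and ha/ha ratios.

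The largest difference relative to its error in the liver was that of Atp5g2, 1 of 3 genes that encode the same mature c-subunit of the membrane rotor ring. Atp5g2 (ENSMUSG00000062683.11) lies on chromosome 15 from 102662864 to 102672352 on the reverse strand. It had 796, 927 and 922 normalized counts in the +/+ mice, 813, 796 and 750.2 in the ep/ep mice and 1169, 1175 and 1124 in the ha/ha mice. The ha/ha livers were above all 6 other livers, and their own values lay close together. The log2 fold change was 0.39 ± 0.10 (SE, limma adjusted p = 0.150) between ha/ha and +/+ livers and 0.56 ± 0.10 (SE, limma adjusted p = 0.247) between ha/ha and ep/ep livers, with unadjusted p-values of 0.00263 and 2.45e-04 from limma. Over the alternative analyses the adjusted p ranged from 0.112 to 0.399 and from 0.0593 to 0.732. Its promoter, shown because it holds the NRF1 motif (in capitals) and because the gene has the smallest p of the liver members, covers chr15:102671048-102671297 on the reverse strand of GRCm38.p6 (RefSeq). This window precedes the RefSeq start site and lies inside the gene as placed above, whose GENCODE start is at 102672352.
Atp5g2: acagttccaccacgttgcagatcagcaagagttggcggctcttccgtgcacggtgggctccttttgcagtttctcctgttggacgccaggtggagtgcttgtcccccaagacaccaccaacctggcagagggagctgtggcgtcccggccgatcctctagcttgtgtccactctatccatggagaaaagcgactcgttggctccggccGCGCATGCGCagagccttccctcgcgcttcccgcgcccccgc
The other ring genes did not share the pattern. Atp5g1 had 6676, 7362 and 6413 normalized counts in the +/+ mice, 7176, 9467 and 7486 in the ep/ep mice and 8435, 7337 and 8445 in the ha/ha mice. Atp5g3 had 11563, 15810.2 and 13500.1 normalized counts in the +/+ mice, 12278, 14964 and 13117 in the ep/ep mice and 14942, 13897 and 15827 in the ha/ha mice. In both, the ha/ha livers overlapped with the +/+ and the ep/ep livers. Per length of transcript, Atp5g2 gave 4.67% to 7.74% of the 3 ring genes in the liver and 2.13% to 4.45% in the heart. The transcript used for Atp5g2 has 441 nt, of which 438 are coding, against 596 and 408 for Atp5g1 and 714 and 423 for Atp5g3. If 441 nt is too short, these shares are too high. In single livers this share was 6.18, 5.74 and 6.58% in +/+, 5.93, 4.67 and 5.21% in ep/ep and 7.02, 7.74 and 6.55% in ha/ha mice, so that ha/ha mouse 3 lay within the +/+ range. In the heart, Atp5g2 had 1149.6, 870.4 and 1180.4 normalized counts in the +/+ mice, 1336, 985 and 1149 in the ep/ep mice and 1517, 1205 and 2015 in the ha/ha mice. Atp5g1 had 28354, 27352 and 23596 normalized counts in the +/+ mice, 32548, 20791 and 25287 in the ep/ep mice and 38245, 32239.5 and 30086 in the ha/ha mice in the heart. Atp5g3 had 30503, 32086 and 28239 normalized counts in the +/+ mice, 33985, 22548 and 29092 in the ep/ep mice and 40047, 34991 and 33962 in the ha/ha mice there. All ha/ha hearts were above all +/+ hearts in each of the 3 ring genes, and ep/ep mouse 1 was above the +/+ hearts too.

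**Figure D4:**
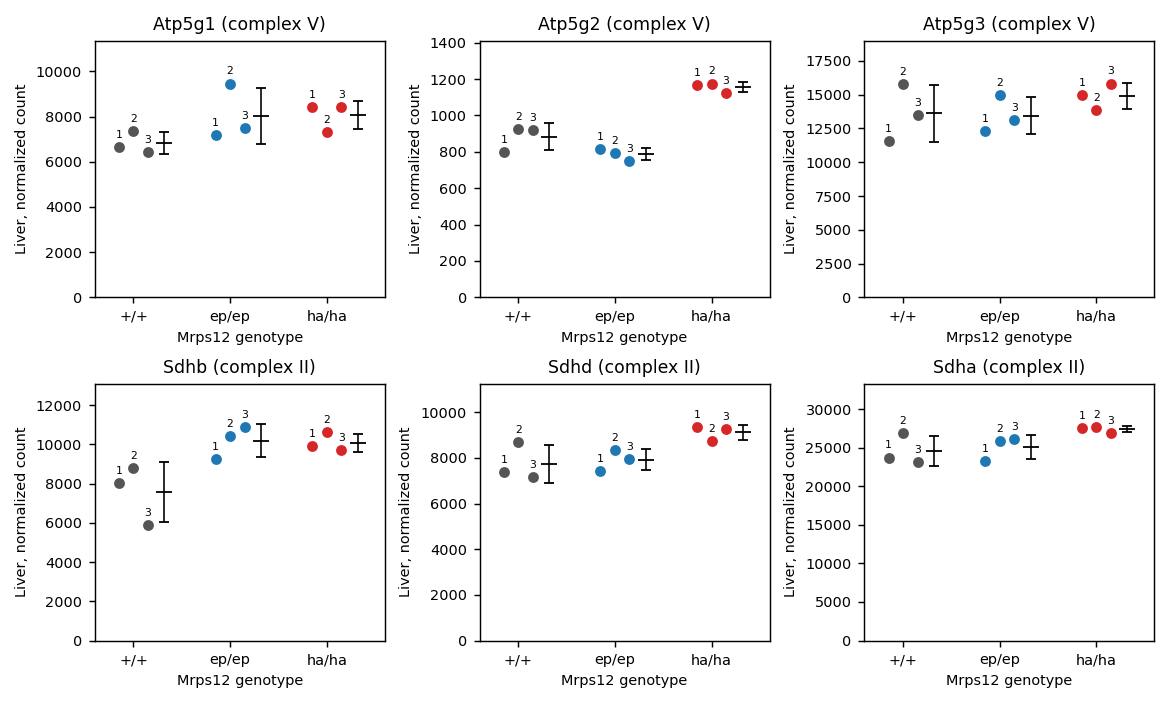
Normalized counts in livers of the 3 genes for the ring subunit of the ATP synthase (Atp5g1, Atp5g2, Atp5g3, top) and of 3 genes of complex II (Sdhb, Sdhd, Sdha, bottom), with 1 numbered point for each mouse and the mean ± SD of the 3 mice of a genotype in black. The ha/ha livers lie at 1124 to 1175 in Atp5g2, above the other 6, and Sdhb is above the +/+ points in both mutants.

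The remaining core genes in the liver differed by less than the spread between mice or by little more. Uqcrc1 had 9512, 11645 and 10075 normalized counts in the +/+ mice, 10117, 13458 and 11512 in the ep/ep mice and 12638, 12169 and 12331 in the ha/ha mice. Uqcrc2 had 10503, 11375 and 11808 normalized counts in the +/+ mice, 10275, 11222 and 12196 in the ep/ep mice and 11169.5, 12006 and 10946 in the ha/ha mice. Uqcrfs1 had 6557, 7409 and 6666 normalized counts in the +/+ mice, 6790.5, 8067 and 7901 in the ep/ep mice and 7926, 7483 and 7677 in the ha/ha mice. Uqcrc1 and Uqcrfs1 were the 2 genes of complex III in which all ha/ha livers were above all +/+ livers, with log2 fold changes of 0.25 ± 0.12 (SE, limma adjusted p = 0.386) and 0.16 ± 0.095 (SE, limma adjusted p = 0.470). Cyc1 had 7187, 8811 and 6601 normalized counts in the +/+ mice, 7846, 9369.8 and 9153 in the ep/ep mice and 9884, 8596 and 8437 in the ha/ha mice. Uqcrh, the hinge protein that binds cytochrome c1, had 7494, 8892 and 7330.1 normalized counts in the +/+ mice, 8338, 9316 and 8263 in the ep/ep mice and 8758, 9538 and 9666 in the ha/ha mice. In both, +/+ mouse 2 lay within the ha/ha range. The log2 fold change of Uqcrh was 0.24 ± 0.10 (SE, limma adjusted p = 0.333). Between transcript length and the log2 fold change of ha/ha against +/+, rho was 0.086 over the 44 members in livers and -0.65 over the 46 in hearts. Single livers differed in direction. Their rho with the log2 difference from the +/+ mean was 0.086, -0.42 and 0.15 in +/+, 0.28, -0.077 and 0.48 in ep/ep and 0.20, 0.18 and -0.30 in ha/ha mice.

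In complex IV of the liver, Cox4i1 had 12798, 17816 and 15739 normalized counts in the +/+ mice, 14456, 20024 and 14533 in the ep/ep mice and 16565, 15446 and 18084 in the ha/ha mice. Cox5a had 4949, 6014 and 5044 normalized counts in the +/+ mice, 4961, 6826 and 5296 in the ep/ep mice and 5698, 5828 and 6351 in the ha/ha mice. Cox5b had 8313, 11003 and 9852 normalized counts in the +/+ mice, 8702, 12378 and 9386 in the ep/ep mice and 10801, 10637 and 11042 in the ha/ha mice. All 3 overlapped between the genotypes, and ep/ep mouse 2 was the highest of the 9 livers in each. Cox6b1, an intermembrane-space subunit that bridges the dimer, had 8924, 11030.4 and 9649 normalized counts in the +/+ mice, 8829.5, 11644 and 10212 in the ep/ep mice and 10929, 10759.5 and 11714 in the ha/ha mice and the second smallest p of the complex between ha/ha and +/+ livers, with a log2 fold change of 0.18 ± 0.12 (SE, limma adjusted p = 0.540). Cox7a2l had 4751, 5634 and 6328 normalized counts in the +/+ mice, 5123, 5039 and 4974 in the ep/ep mice and 5243, 5629.5 and 5697 in the ha/ha mice. It was the 1 gene of complex IV in which all ha/ha livers lay above all ep/ep livers, with a log2 fold change of 0.13 ± 0.11 (SE, limma adjusted p = 0.798).

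In complex V of the liver, Atp5a1 had 41678, 47720.1 and 43229 normalized counts in the +/+ mice, 41597, 48870.1 and 46735 in the ep/ep mice and 49476, 48859 and 51151 in the ha/ha mice. Atp5b had 47976, 51556 and 45962 normalized counts in the +/+ mice, 47601, 59269 and 51489 in the ep/ep mice and 54691, 54306 and 54104 in the ha/ha mice. Atp5c1 had 11242, 12786 and 11960 normalized counts in the +/+ mice, 11329, 13338 and 12511 in the ep/ep mice and 13064, 12989 and 13185 in the ha/ha mice. All ha/ha livers were above all +/+ livers in these catalytic and stalk genes, and ep/ep mouse 2 was near or above the ha/ha mice. The log2 fold changes were 0.17 ± 0.11 (SE, limma adjusted p = 0.525), 0.17 ± 0.12 (SE, limma adjusted p = 0.573) and 0.13 ± 0.093 (SE, limma adjusted p = 0.576). Atp5j2 had 4555, 5498 and 4291 normalized counts in the +/+ mice, 5059.5, 6216 and 5154 in the ep/ep mice and 5638, 5724 and 5898 in the ha/ha mice, and its log2 fold change was 0.28 ± 0.12 (SE, limma adjusted p = 0.336). Atp5a1 and Atp5b kept close to each other in every liver, with a ratio of 0.869, 0.926 and 0.941 in the +/+, 0.874, 0.825 and 0.908 in the ep/ep and 0.905, 0.900 and 0.945 in the ha/ha mice.

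The ep/ep livers were close to the +/+ livers. Of the 44 members, 31 had a log2 fold change above 0, with a median of 0.048 beside -0.0070 over all genes. None had an adjusted p under 0.05, where 0.00653% of all genes did, and Sdhb was the 1 member (2.27%) higher without overlap, where 6.49% of all genes were higher and 6.28% lower. Sdhb, higher, and Cox8b, lower, had an unadjusted p under 0.05 (4.55%), where 9.74% of all genes did, 4.62% higher and 5.12% lower. Cox8b was above 0 only in the livers of +/+ mice 1 and 2 and ha/ha mouse 3, those with muscle markers. It passed the filter only through them, so its p cannot be told apart from muscle tissue in the +/+ livers. Among ep/ep livers, mouse 2 had a median over the members of 0.24 above the +/+ mean, with 30 members above every +/+ liver, while mice 1 and 3 had -0.081 and 0.050. Without +/+ mouse 2, 14 members were higher in ep/ep without overlap, where 3780 of all 15314 genes did not overlap in either direction. The median log2 fold change was 0.13 without +/+ mouse 2, 0.14 without ep/ep mouse 1, -0.0010 without +/+ mouse 1 and -0.0058 without ep/ep mouse 2. Between ha/ha and ep/ep livers, which share mice with both other comparisons, 40 of 44 members were above 0 and the median was 0.087. None had an adjusted p under 0.05, where 0.00653% of all genes did. In 5 members, Sdha, Sdhd, Cox7a2l, Atp5g2 and Atp5mpl, every ha/ha liver was above every ep/ep liver (11.4%, where 8.82% of all genes were). In 0 members every one was below, where 9.01% of all genes were. Without ep/ep mouse 2, 28 members did not overlap, all of them higher in ha/ha, where 5503 of all 15314 genes did not overlap. Atp5g2 was the 1 member with an unadjusted p under 0.05 (2.27%), where 8.62% of all genes had one, higher in ha/ha for 4.17% and lower for 4.45%. The median was 0.016, with 25 of 44 members above 0, without ep/ep mouse 1 and 0.17 without ep/ep mouse 2.

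The isoforms of complex IV separated the tissues. Of the paired genes, Cox6a2, Cox7a1 and Cox8b are the muscle forms, Cox4i2 is linked to low oxygen and lung, and Cox6b2 to testis. Per length of transcript, Cox6a2 made up 93.5% to 95.9% of the sum with its partner Cox6a1 in the 9 hearts, Cox8b 73.9% to 86.2% with Cox8a, and Cox7a1 72.7% to 76.3% with Cox7a2. The liver counterparts were 0.0158% to 3.06%, 0% to 2.34% and 1.21% to 4.31%. The shares of the remaining pairs were low in both tissues, with Cox4i2 at 0.593% to 0.990% of its pair in hearts and 0.0138% to 0.157% in livers, and Cox6b2 at 0.184% to 0.414% and 0.0572% to 0.189%.

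In the heart, Cox8b made up 81.4, 80.6 and 78.2% of its pair in the +/+ hearts, 82.3, 73.9 and 79.0% in the ep/ep hearts and 86.1, 80.9 and 86.2% in the ha/ha hearts. Mice 1 and 3 of ha/ha were highest, and mouse 2 overlapped with the +/+ mice. The difference of the log2 ratio Cox8b/Cox8a between ha/ha and +/+ hearts was 0.44 (SD within groups 0.25), with a two-sided exact permutation p of 0.2 and an adjusted p of 0.875 over the 5 pairs and 3 contrasts of the tissue. The smallest p this design allows is 0.1, so that no pair could pass 0.05. For Cox6a2/Cox6a1 the difference was 0.22 (SD 0.23, exact p = 0.4), and for Cox7a1/Cox7a2 it was -0.015 (SD 0.084, exact p = 0.9). In the ha/ha hearts, the share of Cox6a2 was 95.5, 95.9 and 95.2%, against 95.5, 95.3 and 93.5% in the +/+ hearts and that of Cox7a1 was 75.5, 74.8 and 72.7%, against 72.7% to 76.3% over all 9 hearts.

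The counts behind these shares were as follows. In the hearts Cox8b had 9159, 8892 and 9323 normalized counts in the +/+ mice, 10991, 6227 and 7516 in the ep/ep mice and 15932, 10474 and 15010.2 in the ha/ha mice. Its partner Cox8a had 3206, 3276 and 3962 normalized counts in the +/+ mice, 3616, 3358 and 3045 in the ep/ep mice and 3924, 3775 and 3682 in the ha/ha mice. Cox8b was higher in all ha/ha hearts than in all +/+ hearts, and Cox8a overlapped, with +/+ mouse 3 the highest of the 9. Cox6a2 had 61740.2, 64474 and 62527 normalized counts in the +/+ mice, 71234, 46535 and 56998 in the ep/ep mice and 85676, 65385 and 70943 in the ha/ha mice. Cox7a1 had 13209.7, 13095 and 13651 normalized counts in the +/+ mice, 16541, 10091 and 12886 in the ep/ep mice and 20459.9, 15248 and 17610.5 in the ha/ha mice. Both muscle forms were higher in every ha/ha than in every +/+ heart, and so was ep/ep mouse 1. Cox4i2 had 326, 278 and 235 normalized counts in the +/+ mice, 342, 301 and 259.7 in the ep/ep mice and 466, 278 and 447 in the ha/ha mice. Cox6b2 had 38.8, 56.2 and 59.1 normalized counts in the +/+ mice, 59.4, 42.3 and 25.4 in the ep/ep mice and 53.4, 42.3 and 42.2 in the ha/ha mice. In Cox4i2, mice 1 and 3 of ha/ha were the highest of the 9 hearts and mouse 2 was in the +/+ range. The heart markers of white adipocytes summed to 4427 in +/+ mouse 3 against 0 to 608.3 in the others, and Ucp1, the uncoupling protein of brown fat, was at 8557 there against 0 to 722.6 in the others. This was also the heart with the most Cox6a1 and Cox8a. Cox8b, which brown fat expresses as well, was at 9323 in this heart, near the other +/+ hearts. The part of fat tissue in these levels was not tested.

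In the liver, the muscle forms were present in the libraries with muscle markers. Cox6a2 had 365, 570.1 and 5.70 normalized counts in the +/+ mice, 7.10, 6.5 and 15.5 in the ep/ep mice and 16.7, 2.7 and 215 in the ha/ha mice. Cox8b had 79.8, 153 and 0 normalized counts in the +/+ mice, 0, 0 and 0 in the ep/ep mice and 0, 0 and 40.5 in the ha/ha mice. Cox7a1 had 113, 167 and 70.9 normalized counts in the +/+ mice, 54.9, 74.4 and 53.3 in the ep/ep mice and 61.9, 41.6 and 113 in the ha/ha mice. The livers of +/+ mice 1 and 2 and of ha/ha mouse 3 were the only ones with Cox8b above 0 and with more than 100 counts of Cox6a2, and they were the ones with high skeletal muscle markers (+/+ mice 1 and 2) or high cardiomyocyte markers (ha/ha mouse 3). Among the skeletal muscle markers, Ckm, muscle creatine kinase, had 3847, 4894 and 0 normalized counts in the +/+, 15.7, 0.700 and 8.90 in the ep/ep and 0, 0 and 184 in the ha/ha livers. Cox8b was listed at 0 in all ep/ep livers, so that no fold is given, and its unadjusted p between ep/ep and +/+ livers was 0.0476 (adjusted p = 0.508 from limma), while the groups overlapped in +/+ mouse 3. Of the ubiquitous partners, Cox6a1 had 10948, 15151 and 14212 normalized counts in the +/+ mice, 11343, 16677 and 13108 in the ep/ep mice and 14870.5, 14321 and 15642 in the ha/ha mice. Cox8a had 7818, 9756 and 9350.3 normalized counts in the +/+ mice, 7683, 10428 and 8933 in the ep/ep mice and 9965, 9219.7 and 10149.9 in the ha/ha mice. Cox7a2 had 5215, 6208 and 5762 normalized counts in the +/+ mice, 5181, 5779.9 and 5399.9 in the ep/ep mice and 5391, 5672 and 5690.5 in the ha/ha mice. None of the 3 differed between genotypes without overlap. The minor forms were too low to test. Cox4i2 had 19.6, 2.40 and 2.40 normalized counts in the +/+ mice, 15.7, 10.1 and 4.40 in the ep/ep mice and 7.10, 10.9 and 7.30 in the ha/ha mice. Cox6b2 had 9.10, 10.5 and 9.80 normalized counts in the +/+ mice, 10.2, 16.6 and 4.40 in the ep/ep mice and 9.50, 6.80 and 11.4 in the ha/ha mice.

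**Figure D5:**
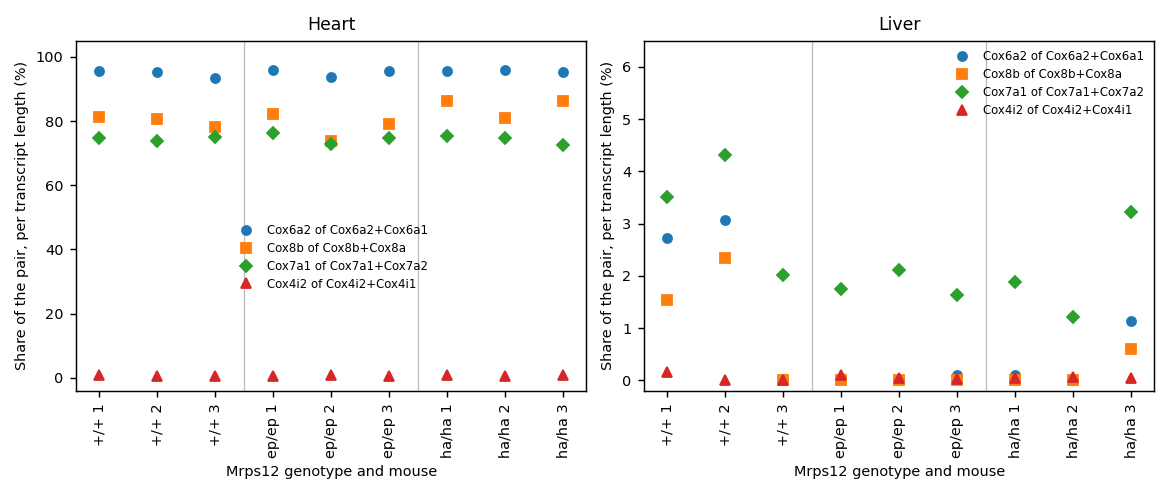
Share of the first-named isoform in its pair, in percent of the counts per transcript length, in each of 9 hearts (left) and 9 livers (right, on a narrower axis), with 1 symbol for each pair and mouse. In hearts the muscle forms Cox6a2, Cox8b and Cox7a1 make up 72.7% to 95.9% of their pairs, and in livers they reach at most 4.31%, with the highest values in +/+ mice 1 and 2 and ha/ha mouse 3.

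Genes that assemble or regulate these complexes were examined for comparison, 50 in all, of which 49 were tested in each tissue. None had an adjusted p under 0.05 in any of the 6 comparisons, where 0% to 0.0311% of all genes did. In ha/ha against +/+ hearts, 18 of 38 assembly factors had a log2 fold change above 0 and the median was -0.040. At an unadjusted p under 0.05, 4 of the 38 were higher and 3 were lower, where 9.64% of all genes were higher and 10.1% were lower. Uqcc2, an assembly factor of complex III, had 1572, 1599 and 1471 normalized counts in the +/+ mice, 1928, 1327 and 1506 in the ep/ep mice and 2549, 1897 and 2542 in the ha/ha mice, with a log2 fold change of 0.58 ± 0.16 (SE, limma adjusted p = 0.199). Higd1a, a small protein that binds complex IV, had 3460, 3330.2 and 2868 normalized counts in the +/+ mice, 3605, 2479.7 and 3142 in the ep/ep mice and 4789.6, 3911 and 4351 in the ha/ha mice, with a log2 fold change of 0.43 ± 0.15 (SE, limma adjusted p = 0.214). Both were higher in every ha/ha heart than in every +/+ heart. Taco1, an activator of the translation of mitochondrial COX1, had 1374, 1265 and 1308 normalized counts in the +/+ mice, 1251, 909 and 1487 in the ep/ep mice and 364, 1314 and 414 in the ha/ha mice, with a log2 fold change of -1.17 ± 0.42 (SE, limma adjusted p = 0.215). Esrrg, the nuclear receptor ERRγ, had 1568, 1459.6 and 1677 normalized counts in the +/+ mice, 1466, 1212 and 1792 in the ep/ep mice and 528, 1531 and 716 in the ha/ha mice, with -0.91 ± 0.33 (SE, limma adjusted p = 0.219). Both were low in ha/ha mice 1 and 3 and among the +/+ hearts in mouse 2. Of the 10 regulators, 3 were above 0 in ha/ha hearts, with a median of -0.34. In ep/ep against +/+ hearts, 10 of the 49 genes were above 0. None had an unadjusted p under 0.05, where 1.69% of all genes did. The smallest p-values were those of Coa7, a complex IV assembly factor, and Yy1. Coa7 had 411, 945 and 830.1 normalized counts in the +/+ mice, 356, 599.6 and 422 in the ep/ep mice and 918, 948 and 437 in the ha/ha mice. Yy1, a transcription factor of many housekeeping genes, had 2083, 2037 and 1921 normalized counts in the +/+ mice, 1861, 1661 and 2004 in the ep/ep mice and 1684, 1779 and 1699 in the ha/ha mice. Both overlapped between these groups.

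In the liver, Ppargc1b, a coactivator of mitochondrial genes, had 106, 150.4 and 24.5 normalized counts in the +/+ mice, 151, 218 and 444 in the ep/ep mice and 376, 557 and 321 in the ha/ha mice, with a log2 fold change of 2.45 ± 0.63 (SE, limma adjusted p = 0.158) between ha/ha and +/+. Esrra, the nuclear receptor ERRα that it works with, had 1222, 1350.4 and 1142 normalized counts in the +/+ mice, 1209, 1388 and 1369 in the ep/ep mice and 1485, 1407 and 1642 in the ha/ha mice, with 0.29 ± 0.11 (SE, limma adjusted p = 0.283). In both, all ha/ha livers were above all +/+ livers. Esrrg had 121, 141 and 272 normalized counts in the +/+ mice, 78.4, 83.1 and 104 in the ep/ep mice and 167, 194 and 196 in the ha/ha mice in the liver, and its log2 fold change was -0.91 ± 0.29 (SE, limma adjusted p = 0.439) between ep/ep and +/+ and 1.07 ± 0.29 (SE, limma adjusted p = 0.417) between ha/ha and ep/ep livers. The ep/ep livers were below all others in Esrrg. Sdhaf2, which attaches the flavin to SDHA, had 1197, 1206 and 1234 normalized counts in the +/+ mice, 1295, 1290.1 and 1367 in the ep/ep mice and 1159, 1159 and 1073 in the ha/ha mice, with a log2 fold change of -0.22 ± 0.082 (SE, limma adjusted p = 0.525) between ha/ha and ep/ep livers, and here the ha/ha livers were below the other 6. Over all 49 genes, 29 were above 0 in ha/ha against +/+ livers, with a median of 0.030.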

How the data were processed

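Normalized counts deposited by the authors, with 1 column for each mouse and tissue (18 in all), were used as given, and the labels list 54 libraries, 3 technical ones for each mouse and tissue, which these columns were taken to pool. The study's methods speak of pooled biological replicates, whereas the labels place 1 mouse behind each column, and the labels were followed. Per the labels and the study's methods, reads were trimmed with Trim Galore 0.4.1 and cutadapt 1.18, checked with FastQC 0.11.8, quantified with Salmon 1.1.0 on GENCODE vM21 (GRCm38.p6) and normalized with DESeq2 within each tissue without mitochondrial transcripts. The unit is other than raw counts, and the low values in each column were whole multiples of 1 step, which gave the reads. The authors' tables of fold changes and p-values were not used. Reads shared with processed pseudogenes of short subunit genes, which the tables list under other names, may have been split by the quantification.

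Normalized counts plus 1 were put on the log2 scale and fitted with limma 3.58.1 in R 4.3.3 (lmFit, eBayes with trend) over the 9 mice of a tissue for genes averaging 10 or more, with Benjamini-Hochberg adjustment across every tested gene and a threshold of 0.05. Adding 1 understates the change of low genes. Isoform pairs were compared by the two-sided exact permutation test on the log2 ratio. Python 3.11.15, pandas 2.3.3, numpy 2.4.6, scipy 1.17.1, statsmodels 0.14.6 and matplotlib 3.10.9 were used for the rest. Transcript length is that of the principal coding transcript of GENCODE (the shortest where several tie). Those of Atp5g2 (441 nt, 438 coding) and Atp5h (486 nt, 483 coding) hold almost no untranslated sequence, so these lengths may be too short. In simulated counts at a dispersion of 0.02, the fit of ha/ha against +/+ called 189 of 200 genes changed 2-fold in the heart and 190 in the liver, and at 0.1 it called 5 and 6. Every simulated mouse had the same dispersion, and which value is nearer to these data was not tested. Changes smaller than 2-fold were not simulated. The members and gene lists were chosen with earlier results of these data known. Values in every mouse are given for core subunits, isoform pairs and ring genes and, for each comparison and complex, the 2 genes with the smallest p are the ones the text turns to, and other genes named were chosen after their values were seen. Alternatives were pseudocounts of 0.1 and 8, leaving out each mouse, a block for the replicate number, array weights, robust eBayes, fits of only the 2 genotypes compared, re-centring, quantile normalization, and a minimum mean of 50 or none. Added after seeing the data were limma-voom on the recovered reads and leaving out libraries with markers of other cells.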

Additional observations from a re-analysis of the deposited data

How the results depend on the processing

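No member passed the adjusted threshold under most alternatives, and of 129 counts of called members under alternatives 123 equalled 0. The exceptions in hearts with array weights were ha/ha against +/+ (24) and ha/ha against ep/ep (28), where 5573 and 6314 of all 16057 genes were called. Leaving out each mouse gave 0 to 20 and 0 to 16 in these comparisons. The highest were without ha/ha mouse 2, where 4330 and 3730 of all genes were called. Without the 3 livers with muscle markers, which leaves 1 +/+ liver, 1 member was called in ha/ha against +/+ and 1 in ep/ep against +/+, Sdhb in each. The medians moved by more than the spread between mice in 2 of 129 cases, both without the 4 hearts with high atrial markers, to 0.19 for ep/ep against +/+ and 0.079 for ha/ha against ep/ep. Counts of members not overlapping moved in 19 of 68 cases. In hearts, leaving out each mouse gave 0 to 22 (22 without ep/ep mouse 1) for ep/ep against +/+. For ha/ha against ep/ep it gave 6 to 31 (31 without ep/ep mouse 1). Keeping only ha/ha mouse 2 of its group gave 18 for ha/ha against ep/ep. In that setting 8795 of all 16057 genes did not overlap, so the rise was not particular to the members. In livers, leaving out each mouse gave 13 to 32 for ha/ha against +/+ and 1 to 14 for ep/ep against +/+. Both were highest without +/+ mouse 2, where 5279 and 3780 of all 15314 genes did not overlap. For ha/ha against ep/ep it gave 5 to 28, the highest without ep/ep mouse 2, where 5503 of all genes did not overlap. Quantile normalization gave 6 and 2 for ha/ha and ep/ep against +/+, and leaving out the livers with muscle markers gave 37 and 21. With 1 +/+ liver left there, 11882 and 9786 of all 15314 genes did not overlap, so the rise was not particular to the members. The cause was not tested.

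With the replicate number as a block, 0 members were called in every comparison. Same-numbered mice of 2 genotypes had correlations between -0.23 and 0.58 in their deviations, and not every pair of a comparison was above 0.1, so the numbers were not taken to pair the mice. Among single genes 13 values changed direction. For ha/ha against +/+ hearts with only ha/ha mouse 2 kept, Sdha was at 0.12 and Sdhd at 0.16, and for ha/ha against ep/ep Sdha was at 0.28. Without the hearts with high atrial markers, ep/ep against +/+ gave 0.052 for Sdhc, 0.20 for Uqcrc1, 0.24 for Uqcrq, 0.11 for Cox6a1, 0.60 for Cox6b2 and 0.25 for Atp5d, and ha/ha against ep/ep gave -0.089 for Sdhb. Leaving out single hearts in ep/ep against +/+ gave -0.28 to 0.047 for Uqcrc1, -0.35 to 0.036 for Uqcrq and -0.27 to 0.0028 for Atp5d, the highest without ep/ep mouse 2. All 210 isoform values stayed within the spread between mice. Depth limits Cox4i2 and Cox6b2 in the liver, where the levels were near 0.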
